A study of Mus musculus with 2 samples.

Results

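MHC class I presentation was followed through 10 of the 27998 genes in the count tables: the light chain gene B2m, the heavy chain genes H2-K1, H2-D1, H2-Q7 and H2-T23, the peptide transporter genes Tap1 and Tap2, the inducible proteasome subunit genes Psmb8 and Psmb9, and the regulator gene Nlrc5. The genes were chosen by name for their role, and their levels were read in 3 classes of retinal myeloid cells in each library. Both groups were CB6F1 males at 8 months of age with Cx3cr1-YFP, a reporter whose yellow fluorescent protein is driven by the promoter of Cx3cr1, the fractalkine receptor gene used by microglia and related myeloid cells. The control group had no light damage, while the light-damaged group was dark-adapted, had its pupils dilated, spent 4 h under bright LED light and recovered for 5 days, a model of photoreceptor degeneration. A group was 1 pool of retinas from between 5 and 8 animals, from which live YFP-positive cells were sorted to make 1 library with the 10x Genomics 3′ end kit.

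Class I molecules show fragments of a cell's own proteins to cytotoxic T cells and to natural killer cells. The proteasome cuts proteins into peptides, the Tap1 and Tap2 proteins pump them into the endoplasmic reticulum, and there a peptide is loaded onto a heavy chain held by beta-2-microglobulin. Interferons raise this machinery, replace the constitutive catalytic subunits of the proteasome by inducible ones, and act in part through Nlrc5, a transactivator of class I promoters. Resting microglia, the resident macrophages of the nervous system, are known for low class I on their surface.

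Each group had 1 library, so no difference between groups has a replicate check, no test was possible, and group and library cannot be told apart. Intervals are given at 95% and reflect counting error alone. The control library held 4003 barcodes and 20056338 UMIs (unique molecular identifiers, counted transcripts), and the light-damaged library 6821 barcodes and 58187149 UMIs, with 47 barcode sequences shared between them. After filtering, 3820 and 6427 cells were kept. A cell was called microglia when P2ry12, Tmem119, Siglech, Gpr34 and P2ry13 summed to at least 20 UMIs per 10000, perivascular macrophage when Mrc1, F13a1, Cd163, Lyve1 and Cbr2 summed to at least 10, and other macrophage when both sums were under 10. Microglia numbered 3376 control and 4391 light-damaged cells (88.4% and 68.3% of kept cells), perivascular macrophages 53 and 83, and other macrophages 244 and 1163 (6.39% and 18.1%). Cells between the microglia thresholds (142 and 788) had no class, and 5 and 2 cells past both thresholds were kept apart. Near the microglia threshold, with sums from 15 to 25, lay 152 control and 764 light-damaged cells. None of the 10 genes was used to choose cells. Median depth was 4795 UMIs in control and 6775 in light-damaged microglia.

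The class labels were checked against markers. Microglia and perivascular macrophages held all their defining markers in both libraries, and the 5 T and NK cell markers found summed to at most 0.181 CPM in these classes (CPM, the UMIs of a gene scaled by all UMIs of the class). The control cells called other macrophages went partly against the label. Of those 244 cells, 28 had under 10 UMIs per 10000 of the pan-myeloid markers Csf1r, Tyrobp, Fcer1g, Ctss and Cd68, and 52 had at least 50 UMIs per 10000 of rod photoreceptor transcripts, against 16 and 11 of the 1163 light-damaged cells. The T and NK cell markers summed to 32.8 CPM in these control cells and to 0 in the light-damaged ones. Because of the barcodes low in pan-myeloid markers or high in rod transcripts, ratios of other macrophages between the libraries are given also for a subset. It holds the 181 control and 1142 light-damaged cells that carried pan-myeloid markers and few rod transcripts. The subset was chosen after the data were seen and is called rod-low myeloid cells here. It does not remove the T and NK cell markers, which summed to 40.1 CPM in its control cells and to 0 in its light-damaged ones. Markers of Mueller glia and astrocytes (1354 and 223 CPM), endothelium and pericytes (277 and 14.1) and bipolar cells (224 and 10.7) also stayed higher in its control cells.

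The genes other than B2m and Nlrc5 lie in the MHC region of chromosome 17. In GRCm38, the assembly that mm10 names, B2m (ENSMUSG00000060802) is at chr2:122147686-122153083 and Nlrc5 (ENSMUSG00000074151) at chr8:94434356-94527272, both on the plus strand. Of the heavy chain genes, H2-K1 (ENSMUSG00000061232) is at chr17:33996017-34000347 on the minus strand, H2-D1 (ENSMUSG00000073411) at chr17:35262730-35267499 on the plus strand, H2-Q7 (ENSMUSG00000060550) at chr17:35439155-35443773 on the plus strand and H2-T23 (ENSMUSG00000067212) at chr17:36029773-36032855 on the minus strand. Psmb9 (ENSMUSG00000096727, chr17:34181987-34187764, minus strand), Tap1 (ENSMUSG00000037321, chr17:34187553-34197225, plus), Psmb8 (ENSMUSG00000024338, chr17:34197721-34201454, plus) and Tap2 (ENSMUSG00000024339, chr17:34203527-34216321, plus) follow each other closely. All 10 are annotated as protein-coding. Psmb9 and Tap1 point away from each other, and their tabulated promoters have 275 bases in common.

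The promoters of B2m, H2-K1 and H2-D1 are shown because these genes moved together from cell to cell, as described further on, and that of H2-Q7 for comparison. They come from the RefSeq promoter table (GRCm38.p6, 250 bases before to 50 after each gene's start), in which 8 of the 10 genes matched, while Tap2 and Nlrc5 did not. Capitals mark a TGACG, the core of the X2 box bound by CREB and ATF factors, an ATTGG, the inverted CCAAT box bound by NF-Y, and, where present, an interferon response core, GAAANNGAAA or the looser TTTCNNTT, which overlaps the former. An annotated transcript of H2-D1 starts further upstream, so only the stretch from X2 core to CCAAT box is shown for that gene.
B2m (chr2:122147539-122147647, plus strand): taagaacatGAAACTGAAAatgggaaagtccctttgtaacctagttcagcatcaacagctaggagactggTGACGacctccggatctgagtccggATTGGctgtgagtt
H2-K1 (chr17:34000350-34000458, minus strand): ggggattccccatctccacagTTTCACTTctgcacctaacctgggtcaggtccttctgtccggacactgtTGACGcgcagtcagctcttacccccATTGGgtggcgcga
H2-Q7 (chr17:35439021-35439128, plus strand): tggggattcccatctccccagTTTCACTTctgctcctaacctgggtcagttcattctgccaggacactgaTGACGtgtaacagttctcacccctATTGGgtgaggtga
H2-D1 (chr17:35262993-35263022, plus strand): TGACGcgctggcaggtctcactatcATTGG

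In these 4 promoters the X2-like core and the inverted CCAAT box had the same spacing to within a base. Their starts were 25 bases apart in B2m, H2-K1 and H2-D1 and 24 in H2-Q7. Such a pair on the same strand, 20 to 30 bases apart, was in 143 of the 32851 full-length promoters of the table (0.435%), and in none of the promoters of H2-T23, Tap1, Psmb8 and Psmb9. Searched on both strands, TGACG was in 6 of the 8 member promoters (20.8% of all promoters), ATTGG in 7 (37.4%), GAAANNGAAA in 2, B2m and H2-T23 (3.44%), TTTCNNTT in 5 (23.9%), the interferon-gamma activated sequence TTCNNNGAA in Psmb8 alone (8.30%) and TATAAA in 4 (13.6%). The TGACG and the ATTGG of Tap1 and Psmb9 are the same bases, in the stretch their promoters have in common, so they are not separate matches. Those of H2-K1 and H2-Q7 lie in similar sequences, as printed above, and are not independent either. The spacing and the looser interferon core were searched after the sequences had been read. A match describes letters only and is not evidence of binding.

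In microglia, B2m, H2-D1, H2-Q7 and Tap1 were at least 1.5-fold higher in the light-damaged library, while H2-K1, H2-T23, Psmb8, Psmb9 and Tap2 did not reach that fold. As a sum the 10 genes made up 8177 CPM in control and 12584 in light-damaged microglia, a ratio of 1.54 (1.53 to 1.55). B2m, the most abundant of them and the partner of every heavy chain, was at 4423 and 6706 CPM, a ratio of 1.52 (1.50 to 1.53). Levels between genes can be compared on this scale because a 3′ end kit counts each transcript once whatever its length, although capture may differ from gene to gene.

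Among the heavy chains, H2-D1 and H2-K1 encode the classical molecules that present peptides to cytotoxic T cells. H2-D1 stood at 2329 CPM in control and 3884 in light-damaged microglia, a ratio of 1.67 (1.65 to 1.69). H2-K1, at 784 and 1167, had a ratio of 1.49 (1.46 to 1.52), just short of 1.5. H2-Q7, which encodes the nonclassical Qa-2 molecule, was scarce at 24.1 and 51.1 CPM but had a ratio of 2.12 (1.90 to 2.37). H2-T23 encodes Qa-1, a ligand of the NKG2A receptor of natural killer cells, and was at 171 and 201, a ratio of 1.17 (1.12 to 1.23).

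The heavy chain counts rest on similar sequences. Of the 50-base words in the last 500 bases of its transcripts, H2-T23 shared 38.1% with other genes, H2-Q7 11.8%, H2-K1 9.60%, H2-D1 8.92% and Tap1 2.75%, and the other members none, so counts of H2-T23 and H2-Q7 in particular are uncertain. CB6F1 mice are a cross of BALB/c and C57BL/6 and carry a class I haplotype of each parent, while mm10 is a C57BL/6 genome. How reads of the other haplotype were counted was not tested, and the mice of both groups are of this cross.

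The transporter genes, neighbours on chromosome 17, differed from each other. Tap1 was at 24.3 CPM in control and 55.8 in light-damaged microglia, a ratio of 2.30 (2.06 to 2.57). Tap2 was at 72.9 and 68.6, a ratio of 0.942 (0.878 to 1.01). Psmb8 and Psmb9, the inducible subunits that cut peptides to fit class I grooves, had smaller ratios: Psmb8 was at 259 and 344 (1.33, 1.28 to 1.37) and Psmb9 at 87.8 and 105.8 (1.20, 1.13 to 1.28). Nlrc5 was nearly absent, with 15 UMIs over all control microglia and 72 over all light-damaged ones, which is 0.906 and 2.21 CPM and a ratio of 2.44 (1.39 to 4.59).

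Of the 9 members that reached 20 CPM in one or both libraries, 4 (B2m, H2-D1, H2-Q7 and Tap1) were at least 1.5-fold higher in light-damaged microglia and 0 were lower. Over all 5217 genes measured at that level, 5.58% were as much higher and 6.77% as much lower. The median log2 ratio was 0.57 over the 9 members and -0.02 over all genes measured. B2m and H2-K1 lie just on either side of the 1.5-fold line, and B2m fell short of it with thinned cells, with a microglia threshold of 40 and without cells high in interferon genes.

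**Figure D1:**
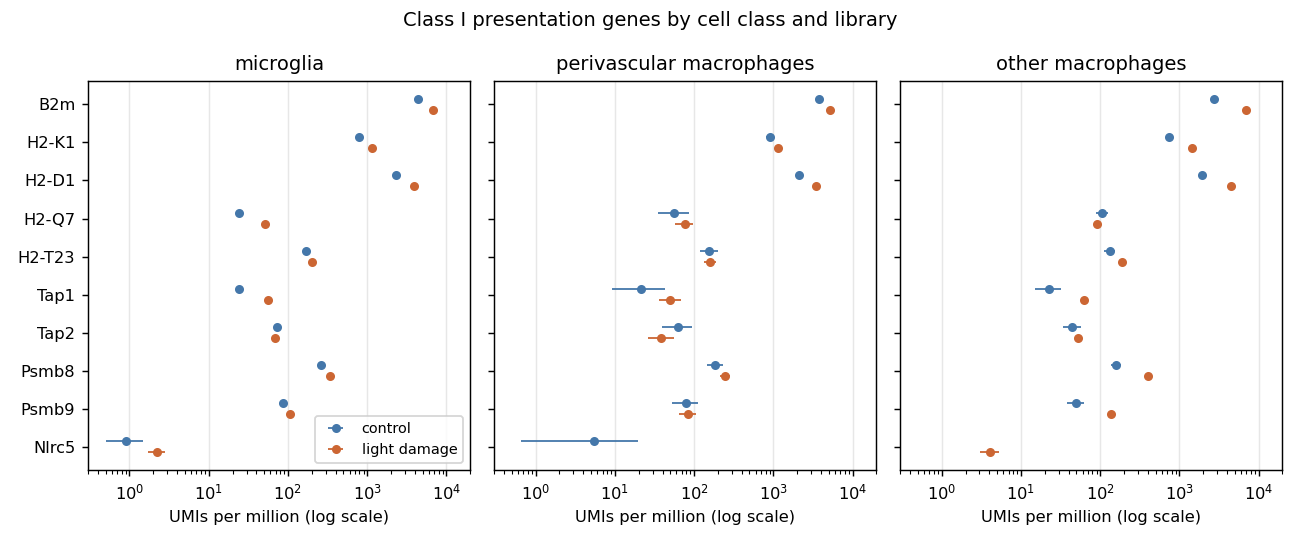
Level of each class I gene in CPM (log axis) in microglia, perivascular macrophages and other macrophages, with control (blue) and light-damaged (orange) libraries; bars are 95% counting intervals and counts of 0 are not drawn. B2m and H2-D1 lead in every panel, H2-Q7 is higher outside microglia, and Nlrc5 stays below 10 CPM.

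Perivascular macrophages, which line retinal vessels, gave few cells and wide intervals. The cells of this class differed between the libraries in other ways: the 4 class II genes summed to 6327 CPM in control and 326 in light-damaged cells, the disease-associated list to 426 and 1708, and the 17 interferon-induced genes to 3353 and 5775. Their part in the class I ratios was not tested, apart from the cells high in interferon genes. Their B2m level was 3723 CPM in control and 5241 in light-damaged cells, a ratio of 1.41 (1.32 to 1.50), and H2-D1 was at 2121 and 3415 (1.61, 1.49 to 1.75). H2-K1 was at 908 and 1134, a ratio of 1.25 (1.10 to 1.42). Tap1 rested on 8 and 39 UMIs, 21.6 and 50.4 CPM, a ratio of 2.34 (1.08 to 5.79). For Tap2, 23 and 30 UMIs gave 62.0 and 38.8 CPM and a ratio of 0.626 (0.351 to 1.13).

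The remaining members of this class had ratios whose intervals reached 1 or nearly so. Psmb8 was at 186.0 and 246.9 CPM (1.33, 1.00 to 1.77), H2-Q7 at 56.6 and 76.3 (1.35, 0.807 to 2.33), Psmb9 at 78.2 and 84.0 (1.08, 0.684 to 1.73) and H2-T23 at 156 and 160.3 (1.03, 0.745 to 1.43). Nlrc5 had 2 UMIs in control and 0 in light-damaged cells, too few for a ratio. Of 9 measured members, 2 (H2-D1 and Tap1) were at least 1.5-fold higher and 1 (Tap2) at least 1.5-fold lower, where 21.4% of all 4970 genes measured in this class were as much higher and 16.5% as much lower. At these counts the members' shares are close to those of all genes. With cells thinned to 3000 UMIs, Tap1 (4 and 10 UMIs) had a ratio of 1.42 and Psmb8 one of 1.82, so Psmb8 took the place of Tap1 among the 2. Without the cells high in interferon genes, which left 31 control and 14 light-damaged cells, 0 members were at least 1.5-fold higher.

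In the other macrophages the ratios were larger. By the rule these cells were low in both defining marker sums, with a median microglia sum of 4.49 UMIs per 10000 in each library. On the wider microglia list they held 3216 CPM in control and 4610 in light-damaged cells. The monocyte markers Ccr2, Ly6c2, Plac8, Vcan and S100a4 summed to 54.5 and 126 CPM. In the light-damaged library they had 3066 CPM of Spp1, 652 of Gpnmb and 66.1 of Ccr2, the monocyte chemokine receptor gene. The class held unlike cells in the libraries: class II genes summed to 14219 CPM in control and 7710 in light-damaged cells, the disease-associated list to 804 and 6167, and the perivascular list to 1029 and 213. In the rod-low myeloid cells the same gaps were seen, at 16929 and 7758 for class II, 969 and 6225 for the disease-associated list and 1251 and 215 for the perivascular list. The ratios below thus compare different populations, and how far the mixture of cells sets them was not tested. B2m was at 2707 CPM in control and 6918 in light-damaged cells, a ratio of 2.56 (2.47 to 2.64). H2-D1 stood at 1944 and 4459 (2.29, 2.21 to 2.39) and H2-K1 at 737 and 1456 (1.98, 1.85 to 2.11). Both inducible subunit genes were higher too, Psmb8 at 159.7 and 402.0 (2.52, 2.20 to 2.90) and Psmb9 at 49.2 and 137.6 (2.79, 2.18 to 3.63). Tap1 was at 22.4 and 62.6, a ratio of 2.80 (1.94 to 4.17).

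Other members of the group were nearer to equal levels. H2-T23 was at 132 and 190.2 CPM, a ratio of 1.44 (1.24 to 1.69), and Tap2 at 44.02 and 51.9 (1.18, 0.902 to 1.57). H2-Q7 was the member with the lower value in the light-damaged library, at 105.9 and 90.7 (0.856, 0.719 to 1.03). For Nlrc5, 0 UMIs in control and 51 in light-damaged cells gave a level at least 1.80-fold higher, taking 3 counts in the control class as the floor, and at least 1.49-fold higher in the rod-low myeloid cells. The lower ends of the exact counting intervals were 1.41 and 1.17.

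Of the 9 measured members, 6 were at least 1.5-fold higher and 0 lower, against 23% and 28.3% of all 5859 genes measured in other macrophages. Part of this gap moved with the cells that went against the label: control cells of the class with high rod transcripts had 744 CPM of the 10 genes, against 6772 in the rest of the class. In the rod-low myeloid cells the ratios were 2.17 for B2m (2.10 to 2.24), 1.96 for H2-D1 (1.88 to 2.04), 1.69 for H2-K1 (1.58 to 1.81), 2.13 for Psmb8, 2.49 for Psmb9 and 2.29 for Tap1. H2-Q7 was then at 127.6 and 90.8 CPM, a ratio of 0.712 (0.597 to 0.855), and H2-T23 at 1.20 (1.03 to 1.41). The same 6 of 9 members were at least 1.5-fold higher in these cells, where 28.7% of all 5382 genes measured were.

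**Figure D2:**
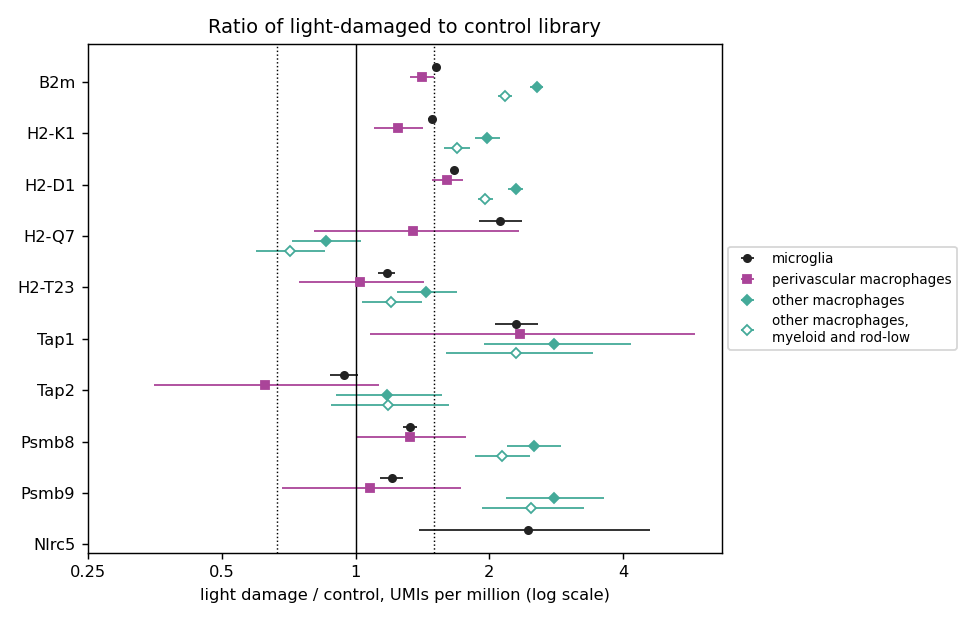
Ratio of the light-damaged to the control level of each gene (log axis) in microglia, perivascular macrophages, other macrophages and their rod-low myeloid subset (open symbols); bars are 95% counting intervals, the solid line marks equal levels and dotted lines 1.5-fold. H2-Q7 is to the right of the line in microglia and to the left in other macrophages, Tap1 is between 2.29 and 2.80 in all 4 series, and ratios with a count of 0 are not drawn.

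The cell classes themselves differed in their class I genes within a library. In the control library, microglia had more B2m than other macrophages, whose level was 0.612 of that in microglia (0.592 to 0.633) and 0.726 (0.702 to 0.751) in the rod-low myeloid cells. In the light-damaged library the levels were nearly equal, at 1.03 (1.02 to 1.04). For Psmb9 this ratio of other macrophages to microglia was 0.561 in control (0.431 to 0.718) and 1.30 in light-damaged cells (1.23 to 1.38). In the rod-low myeloid cells the Psmb9 ratio was 0.633 and 1.31.

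H2-Q7 was higher outside the microglia class in both libraries. Control other macrophages had 4.39 times the H2-Q7 level of control microglia (3.597 to 5.33), or 5.28 times (4.33 to 6.42) in the rod-low myeloid cells, and control perivascular macrophages 2.34 times (1.44 to 3.63). In the light-damaged library these ratios were 1.77 (1.64 to 1.91) and 1.49 (1.13 to 1.93). Tap2 went the other way, with other macrophages at 0.604 of the microglia level in control (0.457 to 0.785) and 0.756 in light-damaged cells (0.692 to 0.825), and the rod-low myeloid cells at 0.600 and 0.753. The classes of a library share that library, so these ratios do not replicate each other.

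At equal depth the summed members shifted across the whole range of cells. Each cell with at least 3000 UMIs was thinned to 3000, which left out 600 control microglia, 6 control perivascular macrophages and 72 control cells of the other class. The median microglia then held 23 UMIs of the 10 genes in control and 34 in the light-damaged library, with middle ranges of 18 to 28 and 25 to 46. In perivascular macrophages the medians were 20 and 28, and in other macrophages 18 and 39. In the other class the 10th percentile was 3 UMIs in control and 20 in light-damaged cells.

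**Figure D3:**
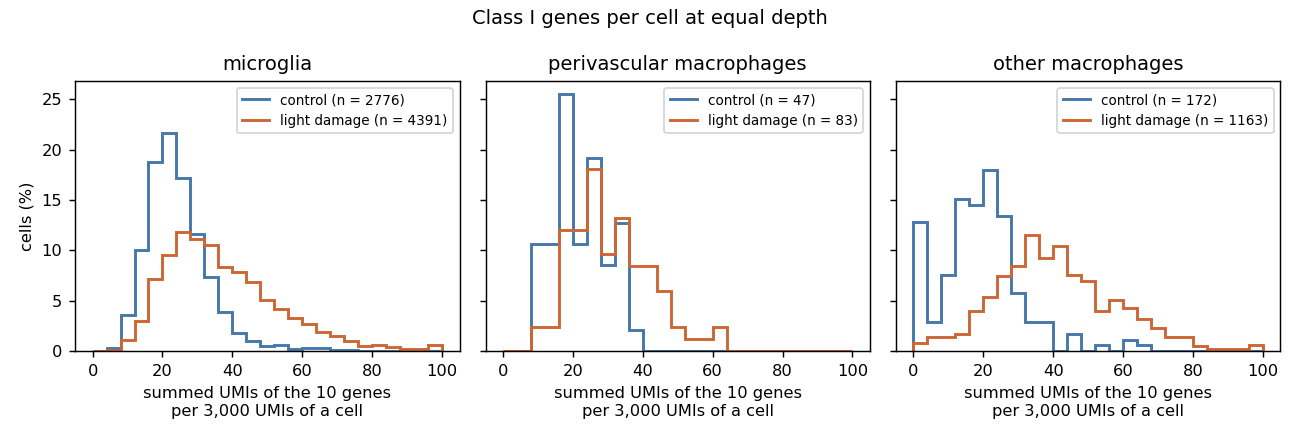
Share of cells (%) by summed UMIs of the 10 genes after thinning each cell to 3000 UMIs, by class, in control (blue) and light-damaged (orange) libraries; the last bin holds all cells of 96 or more. The light-damaged curves lie to the right, with medians of 34 against 23 in microglia, and the control curve of other macrophages has a second peak next to 0.

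Whether a cell had any UMI depended on the gene's abundance. B2m was seen in all 2776 control and all 4391 light-damaged thinned microglia, and H2-K1 in 83.2% and 90.9%. Tap1 was seen in 7.06% of thinned control microglia (11.2% before thinning) and 14.2% of light-damaged ones (30.6%), and H2-Q7 in 6.09% and 12.05% (9.42% and 24.3% before thinning). Barcodes low in pan-myeloid markers, which carry little macrophage RNA, served as background. Their B2m level was 498 CPM in the 28 control barcodes and 1244 in the 16 light-damaged ones, and before thinning 0 of the control and 3 of the light-damaged barcodes had a UMI of H2-Q7, a share of 0% and 18.75% (4.05% to 45.6%). The 5 H2-Q7 UMIs of these light-damaged barcodes gave 58.7 CPM (19.06 to 137), so that level did not differ from that of light-damaged microglia beyond counting error. Tap1 was likewise in 0 and 3 of them, with 3 UMIs and 35.2 CPM (7.26 to 103) in the light-damaged ones. After thinning, 0 of 13 control and 0 of 16 light-damaged barcodes had a UMI of H2-Q7, with upper bounds of 24.7% and 20.6%, and 0 and 1 had one of Tap1. These few barcodes therefore do not set the microglial shares of H2-Q7 and Tap1 apart from background.

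The balance between paired genes was compared as the share of their joint UMIs. Psmb8 replaces Psmb5 in the inducible proteasome, Psmb9 replaces Psmb6, and Psmb10 replaces Psmb7. In microglia Psmb8 held 66.7% of its pair in control (65.6% to 67.9%) and 72.5% after light damage (71.8% to 73.2%), while Psmb9 held 32.9% (31.5% to 34.3%) and 37.6% (36.6% to 38.6%). The Psmb10 share was 54.0% (52.4% to 55.6%) and 52.6% (51.5% to 53.7%). All 3 inducible genes together made up 53.2% and 57.8% of the UMIs of the 6 subunits.

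In other macrophages the inducible share was lower in control, at 40.8% (37.5% to 44.04%), and 51.4% after light damage (50.6% to 52.1%). Among the rod-low myeloid cells it was 46.7% (43.1% to 50.4%) and 51.5% (50.8% to 52.3%). Cells high in interferon genes made up 22.5% of the class in control and 63.4% in the light-damaged library. Without them the class stood at 36.7% (33.0% to 40.5%) and 39.5% (38.2% to 40.9%), and these intervals overlapped. Microglia without cells high in interferon genes stood at 53.0% (52.2% to 53.9%) and 57.0% (56.3% to 57.7%), which did not overlap. With all their cells, perivascular macrophages had 50.6% (44.1% to 57.1%) and 56.3% (52.2% to 60.3%), which overlap.

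A larger shift was seen between the transporter genes. Tap1 held 24.98% of the Tap1 and Tap2 UMIs of control microglia (22.9% to 27.2%) and 44.8% of those of light-damaged microglia (43.3% to 46.4%). In other macrophages its share was 33.7% (24.03% to 44.5%) and 54.7% (52.1% to 57.3%), in the rod-low myeloid cells 38.5% (27.7% to 50.2%) and 54.8% (52.2% to 57.4%), and in perivascular macrophages 25.8% (11.9% to 44.6%) and 56.5% (44.04% to 68.4%). Without the cells high in interferon genes the Tap1 share was 24.2% (22.1% to 26.4%) and 39.2% (37.3% to 41.2%) in microglia. It was then 30.2% (19.2% to 43.0%) and 53.0% (48.1% to 57.8%) in other macrophages. The perivascular values, 23.5% and 33.3%, rested on 4 and 3 UMIs of Tap1. Between the classical heavy chains the balance moved less, with H2-D1 at 74.8% and 76.9% of the H2-D1 and H2-K1 UMIs of microglia, 70.02% and 75.1% in perivascular macrophages and 72.5% and 75.4% in other macrophages.

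**Figure D4:**
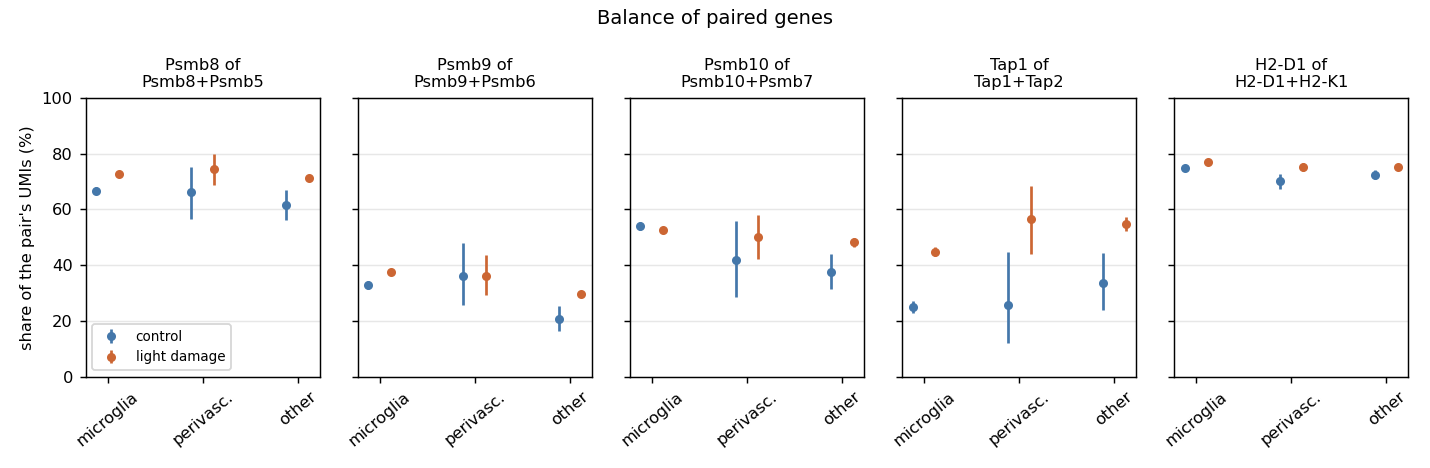
Share (%) of a pair's UMIs held by its first gene, by class, in control (blue) and light-damaged (orange) libraries, with 95% exact binomial intervals. The Tap1 share differs most, from 24.98% to 44.8% in microglia, while the H2-D1 share lies between 70.02% and 76.9% over the classes and libraries.

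Class I levels were then followed along the interferon response of single microglia. Cells of each library were put in 4 tiers by the summed UMIs per 10000 of 17 interferon-induced genes, none of them a member: under 5, 5 to under 15, 15 to under 30, and at least 30. The control library had 2209, 875, 185 and 107 cells in these tiers, and the light-damaged library 494, 1335, 1284 and 1278, so the highest tier held 3.17% and 29.1% of microglia. Near its threshold, from 25 to 35, were 65 control and 602 light-damaged cells. From the lowest to the highest tier the summed members went from 7771 to 11380 CPM in control and from 8537 to 15346 in the light-damaged library.

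Most members were higher in the highest tier of both libraries. H2-K1 was at 733 CPM in the lowest and 1224 in the highest control tier, a ratio of 1.67 (1.54 to 1.81). With light damage it was at 711 and 1474, a ratio of 2.07 (1.98 to 2.17). For H2-Q7 the ratio of highest to lowest tier was 2.88 in control (1.93 to 4.15) and 2.84 with light damage (2.27 to 3.58). Tap1 gave 2.72 (1.83 to 3.93) and 2.29 (1.88 to 2.83), and its control level was between 22.8 and 24.6 CPM in the 3 lower tiers and 62.2 in the highest. Tap2 was at 69.3 and 96.2 in control, a ratio of 1.39 (1.02 to 1.84) beside 1.37 for B2m (1.32 to 1.42). With light damage Tap2 was at 69.2 and 70.7 (1.02, 0.876 to 1.19), where B2m had 1.76 (1.73 to 1.79). The highest control tier held 51 UMIs of Tap2. After thinning, control Tap2 was at 73.6 (66.5 to 81.3) and 87.0 CPM (58.7 to 124), and these intervals overlapped.

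Before thinning, the libraries differed less within each tier than over the whole class for B2m, H2-K1 and H2-D1. In the lowest tier H2-K1 was at 733 CPM in control and 711 in light-damaged microglia, a ratio of 0.970 (0.925 to 1.02), which turned to 732 and 792 after thinning, and B2m at 4231 and 4651, 1.10 (1.08 to 1.12). H2-D1 had 2192 and 2537 in that tier, a ratio of 1.16 (1.13 to 1.19). In the highest tier the ratios were 1.20 for H2-K1 (1.11 to 1.30), 1.41 for B2m (1.36 to 1.47) and 1.41 for H2-D1 (1.34 to 1.47). Median depth there was 4838 UMIs in control and 7566.5 in light-damaged cells. After thinning, B2m in that tier was at 5351 and 7926 CPM, while all thinned microglia held a mean of 13.1 and 19.4 UMIs. That B2m gap was about as large as over the class. Thinned H2-D1 was at 2184 and 2794 CPM in the lowest tier and 3162 and 4810 in the highest, with class means of 6.92 and 11.7 UMIs. Tap1 was higher in the light-damaged library in the lowest tier already, at 22.8 and 35.1 CPM (1.54, 1.21 to 1.93).

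H2-T23 showed the opposite order within tiers and in the class as a whole. Its light-damaged level was below the control level in each tier, at ratios of 0.859 (0.770 to 0.957), 0.894 (0.818 to 0.979), 0.832 (0.722 to 0.963) and 0.774 (0.665 to 0.906). Over all microglia it was higher, at the 1.17 given above, and the light-damaged library had a larger share of its cells in the upper tiers. With each cell thinned to 3000 UMIs the light-damaged level stayed lower in all 4 tiers, at 139 against 164, 160.4 against 166.9, 202.7 against 250.6 and 268 against 310.1 CPM. The 95% counting intervals of the levels overlapped in every tier. Such overlap does not show that the levels were equal, and no interval was taken for the thinned ratios within tiers. H2-T23 was at 156 CPM in the lowest control tier and 336 in the highest, and at 134 and 260 in the light-damaged library. Cells within a tier need not match between the libraries in other respects, and the sequence overlap of this gene applies here too.

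**Figure D5:**
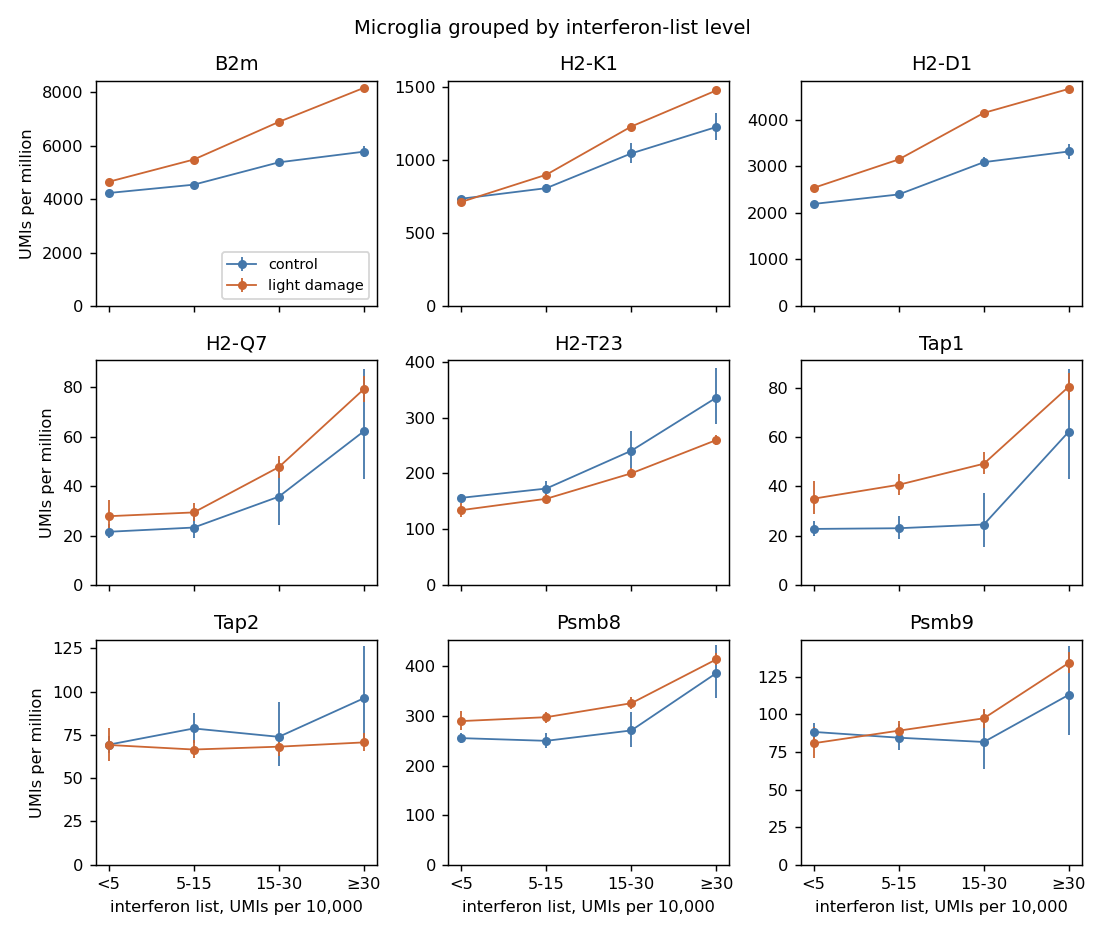
Level in CPM (linear axes from 0) of 9 class I genes in microglia of control (blue) and light-damaged (orange) libraries, by tier of the interferon-gene sum per 10000 UMIs; bars are 95% counting intervals. The highest tier lies above the lowest in both libraries for B2m, H2-K1, H2-D1 and H2-Q7. The H2-T23 line of the light-damaged library lies below that of the control in all 4 tiers. Tap2 is nearly flat in the light-damaged library, and its highest control point rests on 51 UMIs.

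Other states of the cells also differed in class I genes. Dividing cells, with at least 10 UMIs per 10000 of 6 cell cycle genes, were compared with the rest of the light-damaged library. The 53 dividing microglia had less H2-D1 (2805 against 3916 CPM, a ratio of 0.716, 0.689 to 0.744) and less H2-T23 (0.688, 0.574 to 0.818), but more Tap1 (118 against 53.9, 2.19, 1.79 to 2.66) and Psmb9 (201 against 103, 1.95, 1.68 to 2.26). For these genes the 59 dividing other macrophages had the same order, with 0.655 for H2-D1 (0.633 to 0.679), 0.725 for H2-T23, 1.61 for Tap1 (1.30 to 1.98) and 1.86 for Psmb9 (1.63 to 2.12). H2-K1 was at 1.06 in dividing microglia (0.999 to 1.12) and 0.791 in dividing other macrophages (0.747 to 0.837). H2-Q7 was at 1.63 in dividing microglia (1.28 to 2.05) but at 0.701 in dividing other macrophages (0.545 to 0.889), a difference that was not tested. Dividing cells also had higher interferon-gene sums, with medians of 42.6 against 18.0 in microglia and 58.8 against 41.8 in other macrophages. The part of these sums in the result was not tested.

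In microglia, H2-Q7 was higher in cells high in class II genes, whose products show peptides to helper T cells. In the 99 control microglia with at least 10 UMIs per 10000 of Cd74, H2-Aa, H2-Ab1 and H2-Eb1, H2-Q7 was at 75.3 CPM against 22.7 in the rest, a ratio of 3.32 (2.26 to 4.72). In the 64 such light-damaged microglia it was at 134 against 49.8, a ratio of 2.69 (2.08 to 3.43). H2-K1 had ratios of 1.57 (1.44 to 1.71) and 1.44 (1.34 to 1.54) there, and Psmb8 0.983 and 1.05. The class II-high microglia also had higher interferon-gene sums, with medians of 5.15 against 3.29 in control and 30.2 against 18.1 in the light-damaged library, and their part was not tested. Outside microglia the H2-Q7 ratio was 1.83 in control other macrophages (1.26 to 2.69), 1.12 in light-damaged ones (0.990 to 1.27) and 1.06 in control perivascular macrophages (0.401 to 3.11). Light-damaged microglia with at least 10 UMIs per 10000 of the disease-associated microglia list, 336 cells, had 1.81 times the H2-Q7 level of the rest (1.58 to 2.07) and 1.32 times the H2-K1 level (1.28 to 1.36), with a median interferon-gene sum of 24.97 against 17.9. In light-damaged other macrophages the same division gave 0.959 for H2-Q7 (0.846 to 1.09).

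From cell to cell, the abundant members moved together. Over thinned microglia, Pearson correlations of log counts between H2-K1 and H2-D1 were 0.446 in the 2776 control cells and 0.522 in the 4391 light-damaged cells, and between B2m and H2-D1 0.302 and 0.550. Tap2 had a correlation of 0.000328 with the sum of the other members in control cells, and Psmb8 one of 0.0327. Correlations of scarce genes are held down by sampling, so these low values say little about Tap2. The summed members correlated with the interferon list at 0.163 in control and 0.441 in light-damaged microglia. The cells of a library share that library and its free RNA.

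Genes outside the group were ranked by the lower of their correlations with the summed members in both libraries, among 5003 genes seen in at least 5% of cells. Of the first 10, Ifi27l2a and Ifitm3 were on the interferon list and 0 on the list of other pathway genes. The first was Ctss, the lysosomal protease cathepsin S, at 0.264 in control and 0.344 in light-damaged microglia. Then came the complement gene C1qa (0.201 and 0.203), the interferon-induced gene Ifi27l2a (0.177 and 0.367), the membrane protein gene Itm2b (0.175 and 0.297), the interferon-induced gene Ifitm3 (0.168 and 0.324), C1qb (0.206 and 0.165), the lysosomal protease gene Ctsb (0.163 and 0.318), C1qc (0.160 and 0.177), the cholesterol carrier gene Npc2 (0.153 and 0.235) and Psap, which encodes saposins (0.144 and 0.298). The median correlation over all ranked genes was -0.00288 and -0.00565. Many ranked genes may be scarce, and sampling holds down the correlations of scarce genes. Apart from Ifi27l2a and Ifitm3, the first 10 were seen in at least 98.99% of thinned microglia of each library. They were not compared with equally abundant genes.

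The rest of the pathway was read from a list of 47 other genes, of which 44 were found and 27 were measured at 20 CPM in microglia. In light-damaged microglia 3 of these 27 were at least 1.5-fold higher and 0 lower, against 5.58% and 6.77% of all genes measured, with a median log2 ratio of 0.09. Among the higher ones, Calr, a chaperone of the loading complex, was at 390 CPM in control and 664 in light-damaged microglia (ratio 1.70, 1.66 to 1.75), and the nonclassical heavy chain gene H2-T22 at 34.9 and 63.3 (1.81, 1.65 to 1.99). Tapbp, which bridges the transporter and the heavy chain, was at 228 and 226, and Irf1, a transcription factor of class I and Tap1 promoters, at 41.0 and 36.5 (0.891, 0.810 to 0.981). The constitutive subunit genes Psmb5 and Psmb6 had ratios of 1.01 and 0.980.

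In perivascular macrophages 9 of 29 measured genes of that list were at least 1.5-fold higher and 2 lower, against 21.4% and 16.5% of all genes measured there. In other macrophages 15 of 27 were higher and 2 lower, against 23% and 28.3%, and in the rod-low myeloid cells 14 and 4 of 27, against 28.7% and 21%. The proteasome group was higher throughout in other macrophages, with all 6 measured genes at least 1.5-fold up, among them the constitutive Psmb5 (1.64, 1.38 to 1.97), Psmb6 (1.71, 1.51 to 1.95) and Psmb7 (1.51, 1.28 to 1.80). Psmb10 was at 2.32 (1.88 to 2.91) and the proteasome activator gene Psme2 at 2.30 (1.92 to 2.78). In that class Irf1 was at 73.1 CPM in control and 45.3 in light-damaged cells (ratio 0.620, 0.4996 to 0.776). In the rod-low myeloid cells all 6 proteasome genes were again at least 1.5-fold higher, with 1.84 for Psmb5, 1.86 for Psmb6, 1.69 for Psmb7, 2.10 for Psmb10 and 2.16 for Psme2, and Irf1 was at 0.539.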

How the data were processed

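The authors deposited a matrix of unnormalized UMI counts per gene and cell barcode for each of the 2 libraries. Cell Ranger 2.0.0 and build mm10 are named in the submitters' processing notes, and no source used here gives further steps. Barcodes under 300 genes or over 10% mitochondrial UMIs were dropped, which left 3948 control and 6799 light-damaged ones. Scrublet, run in scanpy 1.11.5 with numpy 2.4.6 and scipy 1.17.1, marked 0 and 2 barcodes with its automatic threshold, so the highest scores were removed, 0.8% per 1000 barcodes (128 and 372). Depth after filtering was 19131972 and 54015217 UMIs. UMIs were summed per library and class and divided by the class total, with exact 95% intervals for ratios of Poisson counts and Clopper-Pearson intervals for shares. Genes under 20 CPM in both libraries were not counted, and the floor was 3 counts. Where a symbol had several identifiers (56 symbols), the one with most UMIs was used. The interval and the thinning were tested on simulated data. The members and lists were chosen with earlier results of these data known. All members were named in every class, the pathway genes of at least 1.5-fold in microglia, and the 10 genes most like the members; other pathway genes and marker genes were named after their values were seen. A single gene counted in the pathway list is not reported here by name. The minimum of 5% of cells for likeness was added later. Alternatives were the mean over cells, another scaling, thinning, no doublet removal, stricter filters and thresholds, and leaving out interferon-high or rod-carrying cells. Clec7a, Trac, H2-Q5, H2-T9 and H2-T10 were not analysed here. Positions come from GENCODE M21.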

Additional observations from a re-analysis of the deposited data

How the results depend on the processing

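The counts of members at least 1.5-fold higher were 4, 2 and 6 in microglia, perivascular and other macrophages. Over the alternatives they lay between 3 and 5 in microglia, where B2m was lost in 3 alternatives, and between 6 and 7 in other macrophages. In perivascular macrophages the count was 2 in all alternatives but one: without interferon-high cells it was 0. With thinned cells the count of 2 was made up of H2-D1 and Psmb8, with 1 of the 2 members shared. Without interferon-high cells (31 control and 14 light-damaged cells) the log2 ratio of H2-K1 was -0.0802 and that of Psmb8 -0.218, against 0.32 and 0.41 with all cells. Other members of this class also fell below equal levels in an alternative. The lowest ratios were 0.806 for H2-Q7, 0.679 for H2-T23 and 0.769 for Psmb9, against main ratios of 1.35, 1.03 and 1.08. Among single members, 78 of 100 alternative values in microglia, 74 of 81 in perivascular macrophages and 60 of 90 in other macrophages moved by less than their counting interval. The ratio of B2m in microglia was between 1.37 and 1.53, that of Tap1 between 1.90 and 2.32 and that of H2-T23 between 1.04 and 1.19. Setting the median gene ratio to 0 moved log2 ratios by 0.106 in other macrophages and by less elsewhere. No paired analysis was possible because each group had 1 library. Depth limits Nlrc5 in all classes and Tap1, Tap2 and H2-Q7 in perivascular macrophages.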

Other observations

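Cells with a microglia marker sum between the thresholds, which belong to no class, gave further values for class I genes. In the 142 control and 788 light-damaged cells of this kind the 10 genes summed to 7684 and 12722 CPM. H2-Q7 was at 89.6 (70.4 to 112.5) and 85.9 (79.6 to 92.5), and Tap1 at 20.6 (11.99 to 33.0) and 64.0 (58.6 to 69.8). Interferon-high cells made up 12.7% and 55.3% of them.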
